A study of Mus musculus with 9 samples.

Results

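The Rab GTPases on the array were taken as every probe set annotated with a single gene whose symbol is Rab followed by a number and, at most, a letter and a further digit. The rule found 95 probe sets of 50 genes among the 22690 probe sets of the array, which name 12394 genes singly. No measured value entered the rule. A probe set is a group of short oligonucleotides on the chip that together give a single reading for a transcript, and 27 of the 50 genes had 2 or more probe sets, with up to 7 for Rab2a. Lung RNA of adult FVB/N mice was read on 9 arrays, with 3 arrays in each of 3 genotypes. HO mice were homozygous for SP-C-hCFTR, a transgene that carries normal human CFTR cDNA behind the promoter of the surfactant gene Sftpc. HE mice carried that transgene on a single allele, and WT mice carried none. HO and HE mice kept both normal copies of mouse Cftr (mCftr+|+), as did WT replicates 1 and 2. The genotype field is empty for WT replicate 3, which its title and description call WT. HO replicate 2 has a homozygous title and genotype field, but its description writes the transgene with a single + allele. The labels name no separate animals, so p-values measure the spread between samples, which may be technical. The Sftpc promoter drives expression in respiratory epithelial cells, whereas the RNA came from lung as a whole.

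Rab proteins are small GTPases that mark the membranes of a cell. In the GTP-bound state each sits on its own organelle and recruits effectors that tether, move and fuse vesicles. Exchange factors load GTP, GTPase-activating proteins end the cycle, and GDP dissociation inhibitors take the prenylated protein off the membrane. CFTR, a chloride channel of the apical membrane, is internalised, recycled and degraded along routes on which Rab5, Rab4, Rab11 and Rab7 act, and Rab38 acts in the biogenesis of the surfactant-storing lamellar bodies of alveolar type II cells. The comparisons ask whether mRNA for this machinery differed with extra CFTR.

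The arrays read as lung. Log2 intensity lay between 15.62 and 16.06 for Sftpc, the surfactant protein C gene of type II cells, and between 15.43 and 15.99 for Scgb1a1, the secretory product of club cells. It lay between 14.30 and 14.76 for Ager, a marker of type I cells. Array medians ran from 697.1 to 741.8 intensity units. The brighter of 2 mouse Cftr probe sets read 9.91, 10.13 and 10.01 in HO, 10.10, 9.96 and 10.02 in HE and 9.90, 10.23 and 9.82 in WT, which overlap. The files do not say whether this mouse probe set can read the human cDNA, so it does not check the genotype labels. No marker gene of 13 lists for lung, blood, fat and heart cells passed the test between genotypes, although the median neutrophil marker was 0.37 log2 units lower in HO than in WT and 0.27 higher in HE. Per array that list's median against the WT mean ran from -0.83 to 0.22 in HO, -0.51 to 0.98 in HE and -0.63 to 0.75 in WT, which overlap. In whole tissue, fewer cells of a type and less RNA per cell cannot be told apart.

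A probe set was called measured when its mean log2 intensity over the 9 arrays reached 8.90, the 40th percentile of the array. By that rule 65 of the 95 Rab probe sets were measured, or 68.4%, against 60% of all probe sets other than controls, and they covered 39 genes. The measured probe set with the lowest mean was that of Rab7b at 9.07, and the nearest below the limit were a Rab40c probe set at 8.90 and the Rab32 probe set at 8.87. The 11 genes with no measured probe set were Rab17, Rab20, Rab27a, Rab30, Rab32, Rab33a, Rab37, Rab3b, Rab3c, Rab40b and Rab6b. Several of these are known for restricted expression, such as Rab3b, Rab3c and Rab6b in neurons and Rab27a in cells that release granules. The 3 Rab27a probe sets averaged 8.08, 7.46 and 6.85 in HO, 8.46, 7.73 and 7.03 in HE and 8.62, 7.91 and 7.01 in WT. The HO arrays differed widely among themselves there, with SDs of 0.56, 0.62 and 0.53 (n = 3). The main test left unmeasured probe sets out.

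Promoter windows of 300 bases, 250 before to 50 after the transcription start, were found in RefSeq (GRCm38.p6) for 42 of the 50 genes, 33 measured and 9 not. The windows of the measured Rab genes held a median of 26 CG dinucleotides (range 9 to 45), and those of the unmeasured ones 11 (range 5 to 42). The same split stood over the whole array, with medians of 22 for 6619 measured genes and 10 for 3268 unmeasured genes. Where a gene had several starts, the start with the most CG pairs was used, which can only raise the count of such a gene. The 2 windows printed here, each 5′ to 3′ on the minus strand with CG pairs in capitals, set a measured gene beside an unmeasured one. Both genes were picked after their values were seen, so the pair does not stand for the 2 sets. Rab43 (chr6:87811730-87812029) held 28 CG pairs at this start, and the poorest of its 4 starts held 3. Rab17 (chr1:90967618-90967917), an epithelial Rab of apical sorting that stayed under the limit here, held 5 at its only start, the fewest of the 9 unmeasured genes.
Rab43: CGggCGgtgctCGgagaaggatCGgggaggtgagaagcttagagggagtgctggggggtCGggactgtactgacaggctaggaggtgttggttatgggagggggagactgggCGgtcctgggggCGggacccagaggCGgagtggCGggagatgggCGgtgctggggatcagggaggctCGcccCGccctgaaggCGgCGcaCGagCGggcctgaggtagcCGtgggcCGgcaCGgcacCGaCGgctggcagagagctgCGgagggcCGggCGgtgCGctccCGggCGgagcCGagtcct
Rab17: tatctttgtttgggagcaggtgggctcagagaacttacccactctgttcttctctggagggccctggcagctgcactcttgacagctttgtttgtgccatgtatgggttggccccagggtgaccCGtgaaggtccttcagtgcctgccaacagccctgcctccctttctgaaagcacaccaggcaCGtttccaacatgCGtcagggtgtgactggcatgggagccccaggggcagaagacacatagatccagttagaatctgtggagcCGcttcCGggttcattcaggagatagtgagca
The TATA box TATAAA, sought on both strands, was found in the window of 1 of the 42 Rab genes (Rab3b), or 2.38%, against 13.7% of the 27025 genes in the table. It was in 0 of the 33 measured Rab genes, against 7.33% of the measured genes of the array. The E-box CACGTG, which reads the same on both strands and does not overlap the TATA box letters, was found in 4 (Rab24, Rab5a, Rab21 and Rab20), or 9.52%, against 7.39% of the table. Among measured genes alone it was in 3 Rab genes, or 9.09%, against 10.3% of the array. Rab6b had the most CG pairs among unmeasured genes, with 42, but the 2 sets overlapped beyond it. Unmeasured Rab40b, Rab27a and Rab20 held 19, 18 and 16, whereas measured Rab25 and Rab9 held 9 each and Rab11b and Rab29 12 each. A match of letters is a description of the window and not a binding site.

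**Figure D1:**
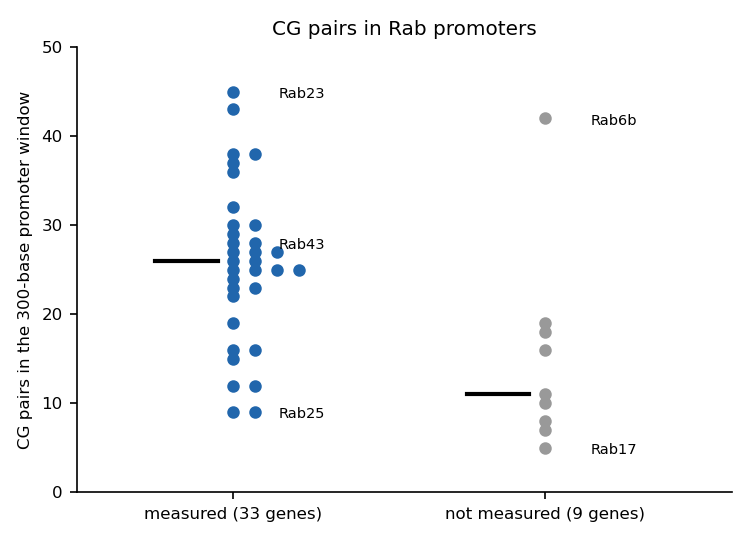
CG dinucleotides in the promoter window (y axis, pairs per 300 bases) of 33 Rab genes with a measured probe set and 9 without, 1 point per gene, with a black bar at the median. The medians are 26 and 11, and the highest unmeasured gene is Rab6b at 42.

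No Rab probe set passed the test in any comparison of genotypes. limma, fitted on all 13576 measured probe sets with Benjamini-Hochberg adjustment over all of them, called 0 of 65 Rab probe sets at an adjusted p of 0.05 between HO and WT, between HE and WT and between HO and HE, and 0 over the whole array (0%) in each. The lowest adjusted p of a Rab probe set by limma was 0.99 for HO minus WT, and over the array it was 0.602. Counting each gene by its measured probe set of highest mean, 21 of the 39 Rab genes had a higher mean in HO than in WT and 18 a lower one, with a median log2 difference of 0.022 against 0.0001 over all 8184 measured genes. For HE minus WT, 17 were higher and 22 lower, with a median of -0.021 against -0.013 over all genes. HO minus WT and HE minus WT share the WT arrays. For HO minus HE, 23 were higher and 16 lower, with a median of 0.029 against 0.015 over all genes. The shares of Rab genes with a higher mean were 53.8%, 43.6% and 59% in HO minus WT, HE minus WT and HO minus HE. Over all genes they were 50%, 46.1% and 54.3%. The Rab medians lay near 0 in all 3 comparisons, as did those of the array.

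The intervals hold for 1 gene at a time, without the adjustment behind the calls. They do not mark the smallest difference that could be called. Rab43 (probe set 1425333_at) was not called at 0.49 in HO minus WT, with an interval of 0.18 to 0.81. The median half-width of the 95% interval was 0.31 log2 units for a Rab gene and 0.34 over all genes, and it ran from 0.25 to 0.81 among the Rabs. The whole interval lay within 0.5 log2 units of 0 for 27 of the 39 genes in HO minus WT, 28 in HE minus WT and 28 in HO minus HE. It lay within 1 log2 unit, a doubling or halving, for 38 genes in each comparison, all but Rab13. The residual SD between replicate arrays had a median of 0.156 for Rab genes and 0.186 over all genes, and it was lowest for Rab1b at 0.063 and highest for Rab13 at 0.59.

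**Figure D2:**
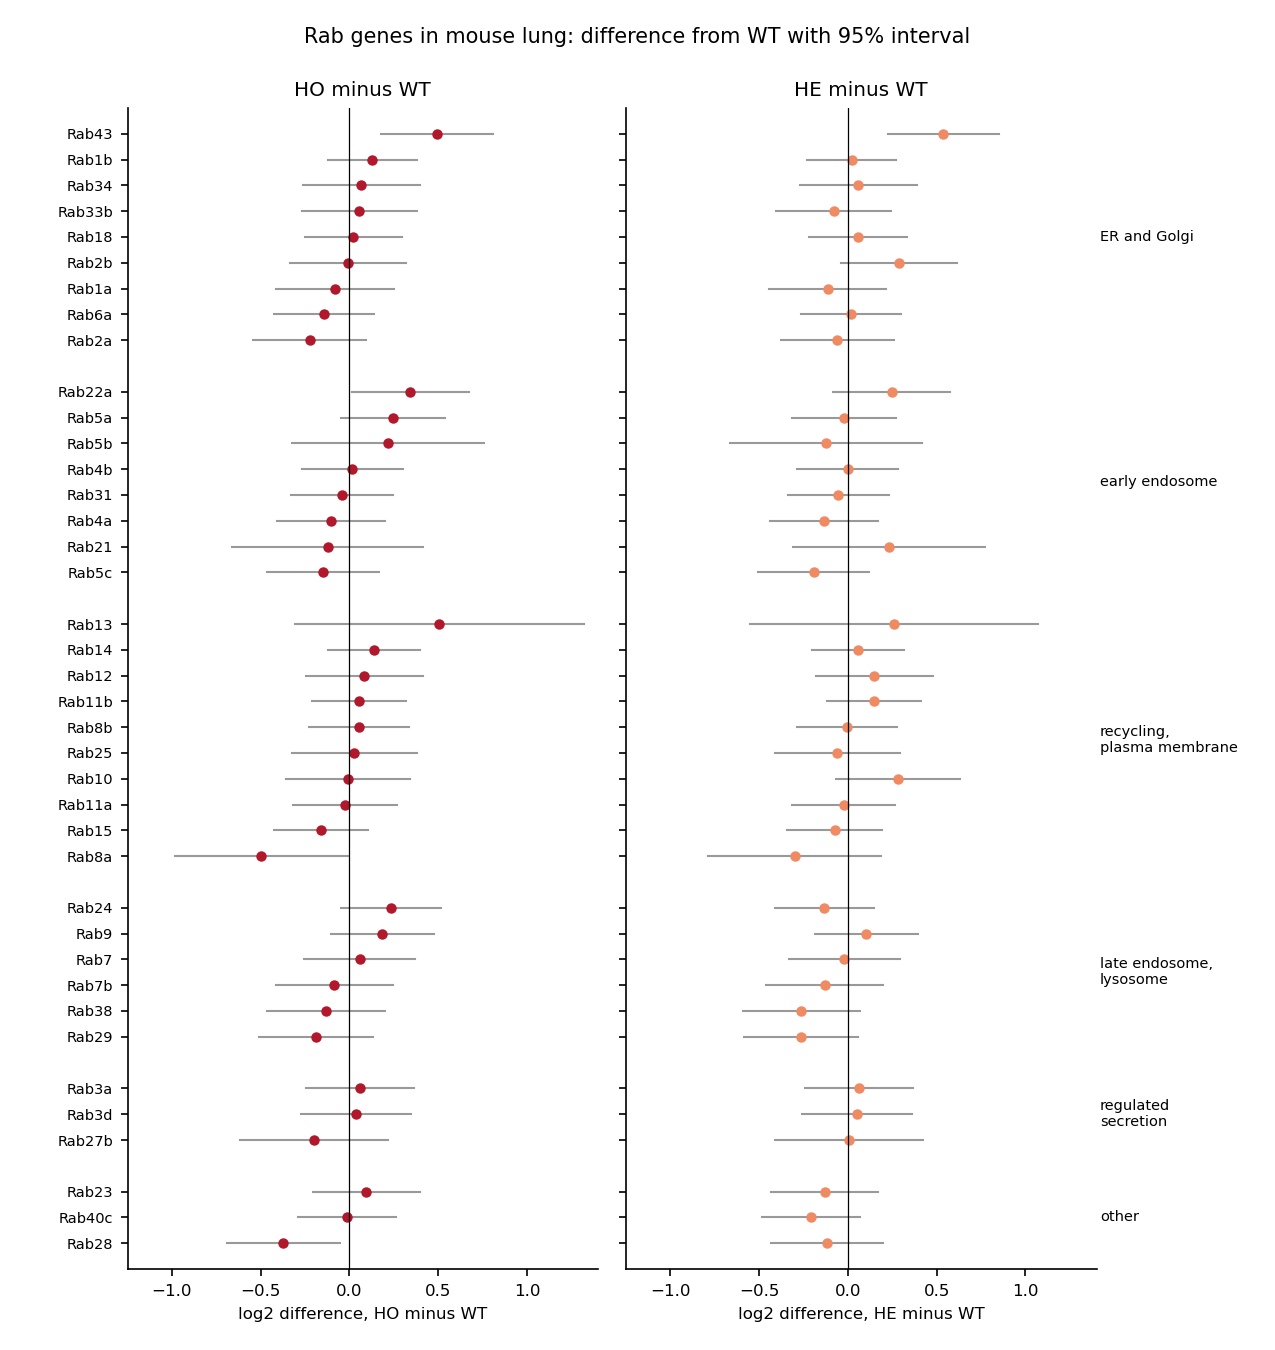
Log2 difference (x axis) of HO minus WT and HE minus WT for the brightest measured probe set of each of 39 Rab genes, grouped by role, with points at the estimate and lines for the 95% interval from limma. Rab43 stands at 0.49 in HO and 0.54 in HE, and Rab13 has the widest interval.

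At an unadjusted p of 0.05, limma passed 4 Rab probe sets in HO minus WT, which is 6.15% against 4.49% of the array. They were 2 with a higher mean in HO (Rab43, Rab22a) and 2 with a lower one (Rab28, Rab8a). In HE minus WT only Rab43 passed, which is 1.54% against 3.11%. In HO minus HE only Rab24 passed, which is 1.54% against 2.56%. Arrays of the 2 groups did not overlap at all for 5 Rab probe sets in HO minus WT (7.69%, against 8.88% of the array), 5 in HE minus WT (7.69%, against 7.7%) and 6 in HO minus HE (9.23%, against 6.66%). These shares are near those of the array.

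Among the Rabs of the endoplasmic reticulum and Golgi, 9 of 12 genes were measured, 5 with a higher and 4 with a lower mean in HO, and the median difference was 0.022. Rab1a and Rab1b, which act in transport from the endoplasmic reticulum to the Golgi, differed by -0.08 and 0.13 in HO minus WT. The 3 HO arrays of Rab1b, at 12.15, 12.07 and 12.03, lay above the WT arrays at 12.00, 11.90 and 11.96, a difference of 0.13 ± 0.11 (SE, limma unadjusted p = 0.281). Rab2a, also of the early secretory pathway, read 12.97, 12.58 and 13.11 in HO and 13.13, 13.07 and 13.13 in WT. HO replicate 2 was the low array there, and the difference of -0.22 in HO minus WT became -0.07 without it. Rab2b, its close relative, read 9.86, 10.17 and 10.18 in HE, against 9.90, 9.90 and 9.55 in WT, a difference of 0.29 ± 0.15 (SE) that limma gave an adjusted p of 0.9997 and that was 0.17 without WT replicate 3. Rab6a, of Golgi retrograde traffic, differed by -0.14 in HO minus WT and 0.02 in HE minus WT, and Rab18, found on lipid droplets and the endoplasmic reticulum, by 0.02 and 0.06.

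Rab43, a Golgi-associated Rab, had the lowest unadjusted p of any Rab probe set in both comparisons with WT. Its probe set 1425333_at read 10.59, 10.17 and 10.50 in HO, 10.48, 10.45 and 10.46 in HE and 10.05, 9.96 and 9.76 in WT. Every HO array and every HE array lay above every WT array. The difference was 0.49 ± 0.14 in HO minus WT, or 1.41-fold, and 0.54 ± 0.14 in HE minus WT, or 1.45-fold (SE, n = 3 each). limma gave unadjusted p = 0.00527 and 0.00306 and adjusted p = 0.99 and 0.9997. Between arrays of the same replicate number the difference was 0.54, 0.20 and 0.74 in HO minus WT and 0.43, 0.49 and 0.69 in HE minus WT. The other Rab43 probe set, 1451670_at, was designed on the same source record and ran the opposite way, with 9.63, 9.45 and 9.89 in HO, 9.66, 9.68 and 10.04 in HE and 10.16, 9.96 and 9.82 in WT. Its differences were -0.32 ± 0.16 in HO minus WT and -0.18 ± 0.16 in HE minus WT (SE), and the groups overlapped.

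Among the early endosome Rabs, 8 of 9 genes were measured, 4 with a higher and 4 with a lower mean in HO, and the median difference was -0.01. Rab5a, which governs fusion of early endosomes, read 12.65, 12.66 and 12.54 in HO, 12.58, 12.23 and 12.23 in HE and 12.45, 12.29 and 12.38 in WT. The HO arrays lay above all WT arrays but not above all HE arrays, and the difference was 0.25 ± 0.13 in HO minus WT (SE, limma adjusted p = 0.99). Its relative Rab5c differed by -0.15 ± 0.14 in HO minus WT and -0.19 ± 0.14 in HE minus WT (SE). Rab4a, of rapid recycling to the plasma membrane, differed by -0.11 in HO minus WT and -0.13 in HE minus WT. Rab22a, which acts between early and recycling endosomes, read 11.85, 11.72 and 11.47 in HO and 11.21, 11.23 and 11.57 in WT on its brightest probe set. WT replicate 3 lay above HO replicate 3, and the difference was 0.34 ± 0.15 (SE, limma unadjusted p = 0.0418, adjusted p = 0.99). With the replicate number in the model the unadjusted p of Rab22a was 0.0571.

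Among the Rabs of recycling endosomes and plasma membrane delivery, 10 of 11 genes were measured, 6 with a higher and 4 with a lower mean in HO, and the median difference was 0.04. Rab11a and Rab11b, the Rabs of the recycling endosome, differed by -0.02 ± 0.13 and 0.05 ± 0.12 in HO minus WT and by -0.02 ± 0.13 and 0.15 ± 0.12 in HE minus WT (SE). Their epithelial relative Rab25 differed by 0.03 ± 0.16 in HO minus WT (SE). Rab8a, which carries vesicles to the plasma membrane and the cilium, read 11.70, 11.63 and 12.56 in HO, 12.24, 11.94 and 12.31 in HE and 12.38, 12.51 and 12.49 in WT. HO replicates 1 and 2 were the low arrays, HO replicate 3 was above all 3 WT arrays, and every HE array was below every WT array. The difference of -0.50 ± 0.22 in HO minus WT (SE, limma unadjusted p = 0.0469, adjusted p = 0.99) became -0.79 without HO replicate 3 and -0.33 without HO replicate 2. Rab10, of basolateral and insulin-regulated delivery, read 12.80, 13.21 and 13.03 in HE and 12.79, 12.51 and 12.89 in WT, a difference of 0.28 ± 0.16 (SE) that was 0.17 without WT replicate 2. Rab14, of Golgi and endosome traffic, differed by 0.14 ± 0.12 in HO minus WT (SE) on its brightest probe set. Its other measured probe sets, from brighter to dimmer, differed by -0.11, -0.07, 0.06 and -0.18.

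Rab13, a Rab of tight junctions, had the largest estimate in HO minus WT, by gene, and the widest interval. It read 10.72, 10.19 and 9.31 in HO, 10.60, 9.56 and 9.31 in HE and 9.86, 9.38 and 9.45 in WT. Within each genotype the number 1 array was the highest, and the groups overlapped. The difference of 0.51 ± 0.37 in HO minus WT (SE, limma adjusted p = 0.99) was 0.89 without HO replicate 3 and 0.18 without HO replicate 1. The limma unadjusted p of Rab13 was 0.197, and with the replicate number in the model it was 0.0367 (adjusted p = 0.826).

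Among the Rabs of late endosomes, lysosomes and related organelles, 6 of 7 genes were measured, 3 with a higher and 3 with a lower mean in HO, with a median of -0.01. In HE minus WT, 1 was higher and 5 lower, with a median of -0.13. Rab7, which drives maturation of late endosomes, differed by 0.06 ± 0.14 in HO minus WT (SE), and Rab9, of return from late endosomes to the Golgi, by 0.19 ± 0.13 (SE), or 0.11 without WT replicate 3. Rab38, of lamellar bodies and melanosomes, read 10.09, 10.04 and 10.33 in HO, 10.08, 9.77 and 10.22 in HE and 10.40, 10.15 and 10.31 in WT. The genotypes overlapped, at -0.13 ± 0.15 in HO minus WT and -0.26 ± 0.15 in HE minus WT (SE), the second of which was -0.14 without HE replicate 2. Rab29, a partner of the kinase LRRK2, read 10.87, 10.73 and 11.04 in HE and 11.39, 11.03 and 11.01 in WT. WT replicate 1 was the high array, and the difference of -0.27 ± 0.15 in HE minus WT (SE) was -0.14 without it.

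Rab24, a Rab of autophagy, was the gene of lowest p between the transgenic genotypes. It read 11.01, 11.19 and 10.89 in HO, 10.65, 10.79 and 10.55 in HE and 10.75, 10.83 and 10.82 in WT, so the HO arrays were above all the others. HO minus HE was 0.37 ± 0.13 (SE, limma unadjusted p = 0.0152, adjusted p = 0.9998), and HO minus WT was 0.23 ± 0.13 (SE), or 0.15 without HO replicate 2. With HO replicate 2 counted as HE, HO minus HE was 0.15.

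Among the Rabs of regulated secretion, 3 of 7 genes were measured. Rab3d, found on secretory granules of exocrine and lung cells, differed by 0.04 ± 0.14 in HO minus WT (SE), Rab3a, of synaptic vesicle release, by 0.06 ± 0.14 (SE), and Rab27b, of granule docking, by -0.20 ± 0.19 (SE). The interval of each of the 3 included 0. Of the 3 remaining measured genes, Rab28, a Rab linked to photoreceptor cilia, read 11.36, 11.15 and 11.60 in HO, 11.57, 11.53 and 11.77 in HE and 11.65, 11.84 and 11.73 in WT. All 3 HO arrays were below all WT arrays, and the difference was -0.37 ± 0.14 (SE, limma unadjusted p = 0.0253, adjusted p = 0.99). Rab23, which acts in Hedgehog signalling, and Rab40c differed by 0.10 and -0.01 in HO minus WT.

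**Figure D3:**
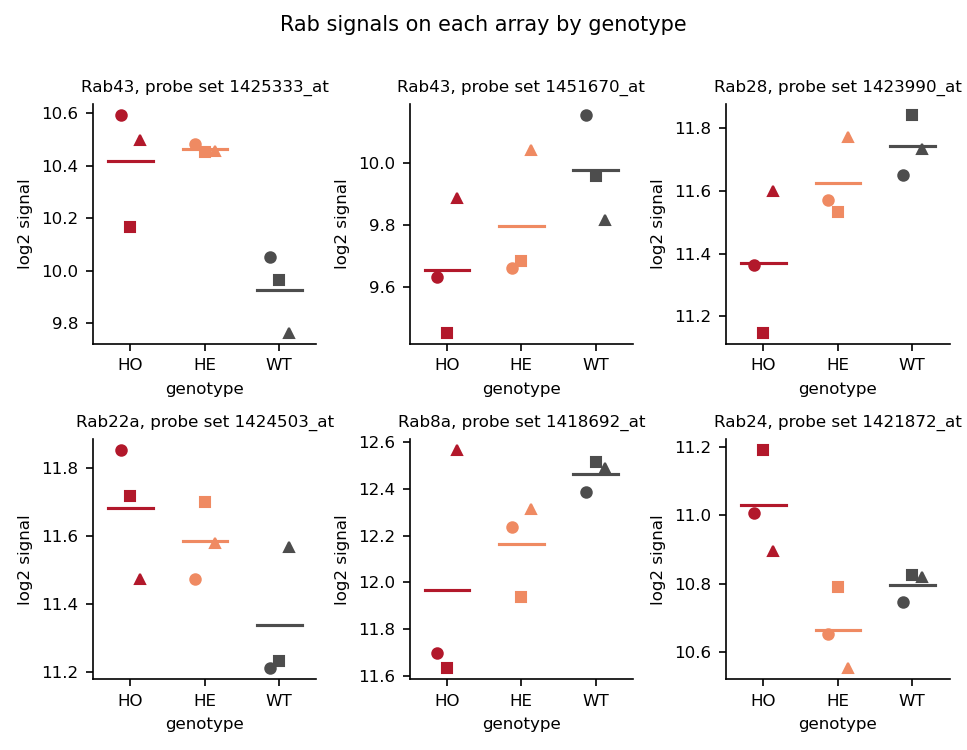
Log2 intensity (y axis) on each array of the Rab probe sets with the lowest p-values, with HO, HE and WT from left to right and the marker shape giving replicate 1, 2 or 3 (circle, square, triangle), lines at group means and a y axis of its own in each panel. For Rab43 1425333_at the WT arrays lie between 9.76 and 10.05, below all HO and HE arrays.

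Several probe sets of a gene give a check that the genotype comparison itself does not. Of the 39 genes, 17 had 2 or more measured probe sets, as did 2882 genes of the array. The 2 brightest gave the same sign for HO minus WT in 8 of the 17 Rab genes (47.1%), against 54.5% of the 2882. For HE minus WT they gave the same sign in 9 (52.9%), against 56%, and for HO minus HE in 9 (52.9%), against 51.8%. The median absolute difference between the 2 estimates was 0.163 for Rab genes and 0.152 over all genes in HO minus WT, and 0.075 and 0.132 in HE minus WT. The sign of a Rab difference was thus repeated by a second probe set about as often as not.

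limma, fitted on the difference between the 2 probe sets of each of the 2882 genes, called 0 genes at an adjusted p of 0.05 in HO minus WT and in HE minus WT. At an unadjusted p of 0.05 it passed 169 genes (5.86%) in HO minus WT and 108 (3.75%) in HE minus WT, among them 1 of the 17 Rab genes (5.88%) each time, Rab43. Per array, 1425333_at minus 1451670_at was 0.96, 0.72 and 0.61 in HO, 0.82, 0.77 and 0.41 in HE and -0.10, 0.005 and -0.05 in WT. All 6 transgenic arrays lay above all 3 WT arrays. The difference between the 2 probe sets' changes was 0.82 ± 0.17 in HO minus WT (SE, 95% interval 0.44 to 1.19, limma unadjusted p = 0.000487, adjusted p = 0.467) and 0.72 ± 0.17 in HE minus WT (SE, limma adjusted p = 0.9999). By absolute size it ranked 19 of the 2882 genes in HO minus WT and 22 in HE minus WT, which share the WT arrays.

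Among the other Rab genes of low p with several measured probe sets, some had a further probe set of like estimate and others did not. Rab22a differed by 0.34 in HO minus WT on its brightest probe set and by -0.16 and 0.13 on the others. Rab28 differed by -0.37 on the brighter and -0.04 on the dimmer probe set. For Rab24 in HO minus HE the estimates were 0.37 and 0.00. Those 3 genes had no estimate of like size on another probe set. Rab2a differed by -0.22 in HO minus WT on its brightest probe set and by -0.06, 0.06 and -0.21 on the others. Rab10 differed by 0.28 in HE minus WT on its brightest and by 0.01 and 0.28 on the others. The 3 Rab2b probe sets differed by -0.29, -0.17 and -0.15 in HO minus HE and by 0.29, -0.003 and 0.10 in HE minus WT. For Rab2a and Rab10 the estimate of the dimmest measured probe set came near that of the brightest, but its SE was 0.24 in each gene. The probe sets of middle brightness did not repeat it. For Rab2b the sign in HO minus HE was shared by all 3. Probe sequences were not available, so whether those 3 read separate stretches of the transcript was not checked. Rab8a, Rab5a and Rab13 had a single measured probe set each. Among the larger gaps in HO minus WT were also Rab14 (0.14 and -0.11) and Rab21 (-0.12 and 0.07). The smallest gaps were those of Rab18, Rab31, Rab7 and Rab6a, whose 2 estimates differed by -0.03, -0.03, 0.05 and -0.07.

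**Figure D4:**
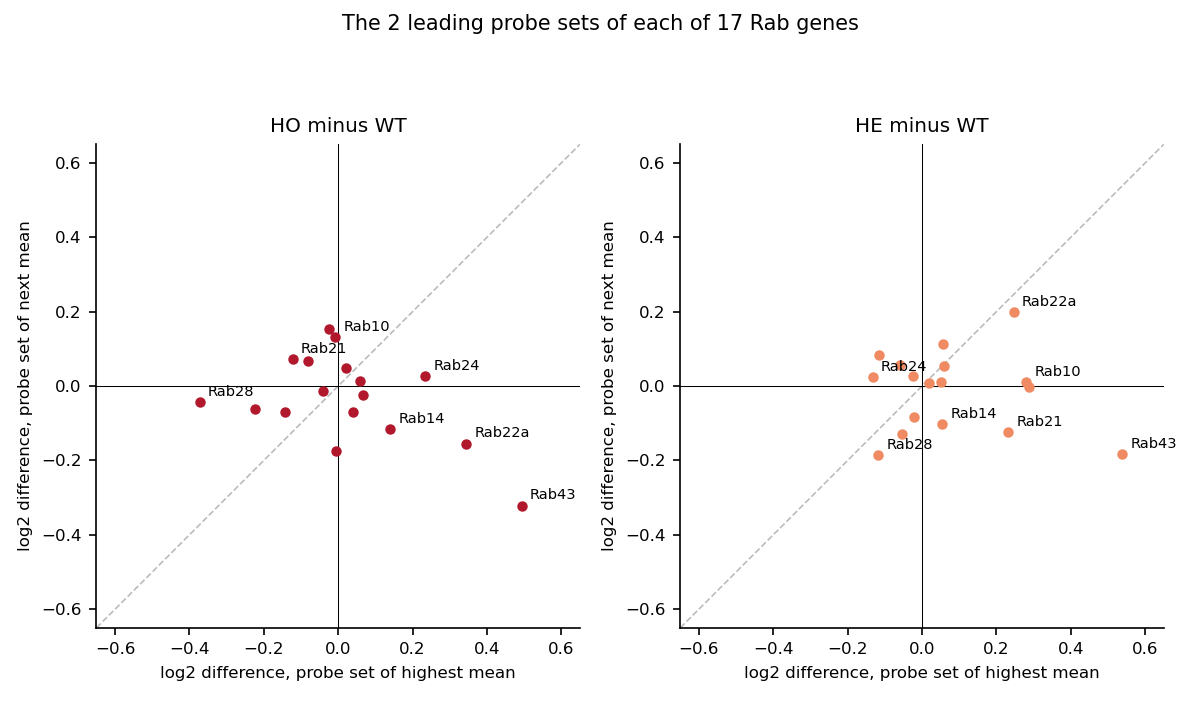
HO minus WT and HE minus WT log2 differences of the brightest (x axis) and second brightest (y axis) measured probe set of 17 Rab genes, 1 point per gene, with the line of equality. Rab43 lies farthest from the line, at 0.49 and -0.32 in HO minus WT and at 0.54 and -0.18 in HE minus WT.

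The replicate numbers in the titles match sets in the source names that hold 1 array of each genotype. Rab signals were therefore compared between numbers at equal genotype, by limma's moderated F test over all measured probe sets. It called 0 of 65 Rab probe sets at an adjusted p of 0.05, against 2 (0.0147%) of the array. At an unadjusted p of 0.05 it passed 7 Rab probe sets (10.8%), against 1633 (12%) of the array. Rab11a 1434549_at read 11.22, 11.14 and 11.00 on the number 1 arrays of HO, HE and WT, 11.88, 11.66 and 11.74 on the number 2 arrays and 11.61, 11.51 and 11.49 on the number 3 arrays. The 3 numbers did not overlap in that probe set (limma F test, unadjusted p = 0.000958, adjusted p = 0.274). The brighter Rab11a probe set showed no such order (limma F test, unadjusted p = 0.419). Means over the number 1, 2 and 3 arrays were 10.46, 10.88 and 11.15 for Rab18 1420899_at, 9.47, 10.06 and 10.09 for Rab5b and 10.40, 9.71 and 9.36 for Rab13. Rab25 averaged 10.62, 10.24 and 10.36, and the remaining ones were dimmer probe sets of Rab22a and Rab2b. These averaged 8.92, 9.41 and 9.49 (Rab22a 1424504_at) and 9.36, 9.48 and 9.89 (Rab2b 1436923_at). Next by p was Rab10 1422664_at, which averaged 10.31, 10.08 and 10.59 and did not pass (limma F test, unadjusted p = 0.0733). Markers of fat cells and heart muscle also differed between same-genotype arrays. The median fat cell marker against the WT mean was 0.68, -1.48 and 0.10 on HO replicates 1 to 3, 0.62, -0.76 and 0.12 on HE and 0.11, -0.15 and 0.17 on WT. The median heart muscle marker was 0.55, -0.24 and -0.29 on HO replicates 1 to 3, 0.47, -0.34 and -0.08 on HE and -0.18, 0.04 and 0.03 on WT. On HO and HE both lists were highest on the number 1 array, and on WT neither was. The median club cell marker was 0.13, 0.11 and -0.18 on HO replicates 1 to 3. On HE it was 0.08, -0.24 and -0.13, and on WT 0.22, 0.08 and -0.25. The club, the ciliated and the mast cell and platelet lists were highest on number 1 in each genotype, and no other marker list was. The fat, heart and club lists rested on 3 of 5, 5 of 6 and 5 of 5 genes. The ciliated list rested on 3 of 7 and the mast cell and platelet list on 4 of 6. No list was tested by number, nor was its part in the Rab values.

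**Figure D5:**
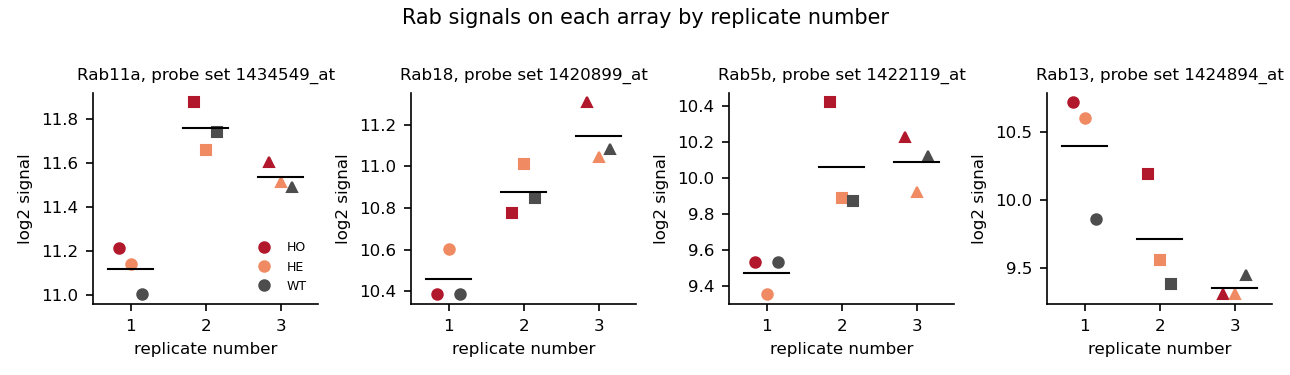
Log2 intensity (y axis) by replicate number (x axis) for the Rab probe sets with the lowest p between numbers, with colour for genotype and a black line for the mean of the 3 arrays of a number. Rab11a 1434549_at averages 11.12, 11.76 and 11.54 on numbers 1 to 3.

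The partners of the Rabs, in 5 lists with 101 measured genes, gave no call either. By limma 0 of the 101 passed at an adjusted p of 0.05 in any comparison. At an unadjusted p of 0.05 limma passed 4 in HO minus WT (3.96%, against 4.49% of the array), 2 higher and 2 lower. It passed 1 in HE minus WT (0.99%, against 3.11%), which was higher, and 1 in HO minus HE (0.99%, against 2.56%), which was lower (Evi5). The 6 measured genes of Rab prenylation and GDP dissociation had 2 higher and 4 lower in HO, with a median of -0.07. Chm, the escort protein that presents new Rabs for prenylation, read 9.70, 9.45 and 9.35 in HO, 9.19, 9.37 and 9.33 in HE and 9.13, 8.97 and 8.84 in WT. Its WT arrays lay below all others, with a difference of 0.52 ± 0.14 in HO minus WT (SE, limma unadjusted p = 0.00295, adjusted p = 0.99) and 0.31 ± 0.14 in HE minus WT (SE). No second Chm probe set was measured.

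Of 19 exchange factors, 11 were higher and 8 lower in HO, with a median of 0.06. Madd, an exchange factor for the secretory Rabs, differed by -0.43 ± 0.19 (SE, limma adjusted p = 0.99). Of 14 GTPase-activating proteins, 10 were higher and 4 lower in HO, with a median of 0.04. Tbc1d17 differed by 0.35 ± 0.13 and Evi5 by -0.34 ± 0.15 (SE), and a second Evi5 probe set differed by 0.14. Of 29 effectors, which bind active Rabs, 24 were higher and 5 lower in HO minus WT, with a median of 0.10, and 14 were higher and 15 lower in HE minus WT, with a median of -0.02. The effectors' median against the WT mean was 0.11, 0.13 and 0.04 on the HO arrays and 0.04, -0.04 and 0.05 on the WT arrays, which overlap. Of 33 SNARE proteins, which fuse the membranes, 17 were higher and 16 lower in HO, with a median of 0.003. In HE minus WT, 13 exchange factors were higher and 6 lower, and 12 GTPase-activating proteins were higher and 2 lower. The prenylation list had 4 higher and 2 lower there, and the SNARE proteins 14 and 19. Over all measured genes, 50% were higher in HO minus WT and 46.1% in HE minus WT. The counts of these lists were not tested.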

How the data were processed

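Lung RNA was hybridised to 9 Affymetrix mouse expression arrays, 3 each of HO, HE and WT. The authors deposited 1 intensity per probe set and array on a linear scale. Every array had a mean of 1500 after trimming 2% at each end, so the deposited values were already scaled, by software that the sources used here do not name. Intensities were floored at the 5th percentile (25.5) and log2 transformed, 64 control probe sets were removed, and probe sets with a mean log2 of at least 8.90 were kept. limma 3.58.1 (R 4.3.3) was fitted on all 9 arrays with group means, leaving 6 residual degrees of freedom. The code was also run on simulated data with known changes. The share of those changes that it called is not given here. Genes were named from the platform annotation (20380 probe sets with 1 symbol, 691 with several, 1555 with none), and all 95 Rab probe sets matched RefSeq by gene identifier.

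Rab members, role groups, pathway lists and tests were chosen with earlier results of these data known. Genes named with values were the 10 Rab probe sets of lowest p in HO minus WT, the 5 in each other comparison, the 8 between replicate numbers, the Rabs of CFTR and surfactant traffic, the extremes of probe set agreement and up to 3 genes of lowest p per list. Others serve as examples of their role group. The levels of different probe sets were not read as relative amounts of RNA. Within a gene they served to pick the brightest probe sets and to take the difference of those on each array. Deviations from the group means of same-numbered HO and WT arrays correlated at 0.19, 0.14 and 0.28 over probe sets. For HE and WT the values were 0.30, 0.05 and 0.04, and for HO and HE 0.16, 0.15 and 0.03. Arrays of unlike number were not set beside these, so the values do not settle whether the numbers pair the groups. No 2 arrays were copies, since the smallest median absolute log2 difference between any 2 was 0.145. Alternatives changed the scaling, filter, floor, fit, probe set choice, replicate block and the label of HO replicate 2, and left out each array.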

Additional observations from a re-analysis of the deposited data

How the results depend on the processing

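The count of Rab probe sets past an adjusted p of 0.05 by limma was 0 in all alternatives run, for all 3 genotype comparisons and for replicate number. Median centring of each array, which shifted all probe sets by 0.054 in HO minus WT, gave a median Rab gene difference of 0.075 in HO minus WT and 0.016 in HE minus WT. Leaving out each array in turn gave a median of -0.045 to 0.023 in HE minus WT. With no filter limma called 2 probe sets over the array in HE minus WT and 2 in HO minus HE. With an array left out it called 0 to 1 in HO minus WT and 0 to 1 in HE minus WT. The cause was not tested. With the replicate block, paired by number, limma called 0 in all 3 comparisons. Its unadjusted p-values under 0.05 numbered 808, 591 and 474 of the 13576 measured probe sets in HO minus WT, HE minus WT and HO minus HE. Among the 65 Rab probe sets they numbered 4, 1 and 2. No adjusted call changed, but among the unadjusted ones by limma in HO minus WT Rab22a gave way to Rab13, and Rab5b joined Rab24 in HO minus HE. Median centring took the limma unadjusted p in HO minus WT to 0.0514 for Rab28 and 0.0673 for Rab8a. With no filter that of Rab8a was 0.0822. Rab43 (probe set 1425333_at) and Rab22a stayed under 0.05 in both settings. Where both Rab43 probe sets were measured, their difference in HO minus WT stayed between 0.72 and 0.89, with an adjusted p of 0.624 with the replicate block. With 3 arrays a group, the unadjusted interval of a typical Rab gene reached about 0.31 log2 units to each side of its estimate. Larger differences could also miss an adjusted call, as Rab43 (probe set 1425333_at) did at 0.49 in HO minus WT.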
